A study of Mus musculus with 12 samples.

Results

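Astrocytes are the glial cells that take up glutamate and potassium around synapses, turn glutamate into glutamine and wrap blood vessels with end-feet that carry water channels. In the hypothalamus they sit beside tanycytes, radial-glia-like cells lining the third ventricle, and several genes that mark astrocytes are also used by tanycytes, by glial progenitors or by oligodendrocytes. Described here are 10 genes of astrocytes and glial progenitors, taken by name from 55416 gene identifiers: Aqp4, Fabp7, Gfap, Vim, Slc1a2, Slc1a3, Aldh1l1, Gja1, S100b and Glul. All 10 were found in the gene tables, each under 1 identifier.

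The study sequenced messenger RNA from the hypothalamus and the gastrocnemius, a calf muscle, of 6 male BALB/c mice. In the CT-26 group (n = 3), mice aged 7 weeks were given subcutaneous abdominal injections of CT-26, a colon carcinoma line of mouse origin. Per the labels they weighed 7 to 10% less than healthy mice by day 10 and were killed on day 25. The control group (n = 3) consisted of male BALB/c mice labelled as 7 weeks old that received no tumour, with no collection day in the labels, so age at collection may differ between the groups. Each library came from 1 tissue of 1 mouse, giving 3 CT-26 and 3 control libraries per tissue. Library totals ran from 27195316 to 52535761 expected counts (estimated numbers of fragments per gene) in the hypothalamus and from 26015741 to 42771331 in the gastrocnemius. The tissue labels held for 10 genes of hypothalamic neurons, a list chosen after its values were seen. Their summed level was 2238 to 2648 CPM (counts per library of equal, TMM-scaled size) in the CT-26 and 1605 to 1893 CPM in the control hypothalamus. In the gastrocnemius it was 0.503 to 1.29 CPM in CT-26 and 0.675 to 0.990 CPM in control mice. Within the hypothalamus these sums did not overlap between the groups, and 3 of the 10 genes were called higher and 2 lower by the test given below.

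In the CT-26 hypothalamus, Fabp7 was 4.20-fold lower and Aqp4 1.93-fold lower than in the control hypothalamus, Gja1 and S100b were lower by smaller amounts, and Glul was 1.45-fold higher. The glutamate transporters Slc1a2 and Slc1a3, the intermediate filament genes Gfap and Vim, and Aldh1l1 did not pass the test. Calls rest on an adjusted p below 0.05 in edgeR's quasi-likelihood test with Benjamini-Hochberg adjustment over all 17961 genes tested in the hypothalamus. By that rule 5 of the 10 genes were called, against 8.77% of all tested genes. The 10 genes were chosen with earlier results of these data known. Shares of them set beside all genes, here and below, are therefore descriptions and not independent tests. Of the 5, 1 rose and 4 fell, against 3.94% of all tested genes called higher and 4.83% called lower. The median log2 fold change of the 10 genes was -0.21, against 0.00 over all genes (-0.003227). In whole tissue, fewer cells of a type and less RNA per cell cannot be told apart.

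The stretch in front of the RefSeq start is shown for Fabp7 and Glul, the members with the largest fall and the largest rise in the hypothalamus. Both are 250 bases upstream of the RefSeq start on GRCm38.p6, written 5′ to 3′ on the strand of the gene, at chr10:57784673-57784922 (plus strand) and chr1:153899679-153899928 (plus strand). Capitals mark CCAAT and AGGTCA on either strand, the letters bound by NF-Y and by ROR or REV-ERB nuclear receptors. The reference is C57BL/6J, not BALB/c.
Fabp7: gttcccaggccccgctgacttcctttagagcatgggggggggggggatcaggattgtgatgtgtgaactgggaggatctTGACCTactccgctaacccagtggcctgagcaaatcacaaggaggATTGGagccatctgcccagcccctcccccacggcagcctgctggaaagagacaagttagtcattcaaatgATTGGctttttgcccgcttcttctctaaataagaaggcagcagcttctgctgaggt
Glul: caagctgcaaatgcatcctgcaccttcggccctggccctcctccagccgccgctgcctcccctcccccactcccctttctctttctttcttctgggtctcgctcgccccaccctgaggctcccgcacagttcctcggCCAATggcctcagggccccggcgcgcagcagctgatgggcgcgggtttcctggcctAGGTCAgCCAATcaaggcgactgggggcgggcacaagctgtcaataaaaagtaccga

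Such stretches were matched by symbol for 9 of the 10 genes, all but Aqp4, and searched on both strands for 10 motifs. The RefSeq start used was not always the outermost start of the gene. The stretches of Vim, Slc1a2, Aldh1l1 and Gfap lay inside the gene spans given here, and that of Fabp7 overlapped the start of its span. The CCAAT box was in 6 of 9, against 33.8% of 32851 stretches of the same length. AGGTCA was in 4 of 9, namely Fabp7, Glul, Gfap and Aldh1l1, against 14.0%. The short NFI site TTGGC, which can overlap CCAAT on the other strand, was in 5 of 9 (41.5% of all), the GC box GGGCGG in 3 of 9 (32.7%) and the TATA box TATAAA in 2 of 9 (12.4%). The STAT motif TTCNNNGAA (7.02% of all) and the AP-1 motif TGANTCA (6.75%) were in 1 of 9 each. The clock-type E-box CACGTG (6.02%), the palindromic glucocorticoid receptor motif (0.387%) and the full NFI site (0.0365%) were in none of the 9. AGGTCA was thus present at a gene that fell, a gene that rose and genes that did not pass the test, and a match describes the sequence only.

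Fabp7 encodes the brain fatty acid binding protein, a marker of radial glia and glial progenitors that adult astrocytes and tanycytes keep. It lies at chr10:57784881-57788450 on the plus strand. Its level was 11.2, 15.2 and 11.1 CPM in the 3 CT-26 hypothalami, against 51.5, 51.6 and 53.4 CPM in the 3 control hypothalami. The groups did not overlap, and the highest CT-26 mouse lay far below the lowest control. The log2 fold change was -2.07 ± 0.11 (SE, adjusted p = 9.374e-06). Among 17961 genes it had the 10th lowest log2 fold change. It rested on 313, 422 and 583 counts in CT-26 mice, against 1520, 1746 and 1470 counts in control mice. Per transcript length, Fabp7 averaged 23.6 ± 5.45 TPM (values scaled by transcript length and by library) in the CT-26 and 97.2 ± 3.92 TPM in the control hypothalamus (SD, n = 3 each).

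Other genes of glial progenitors and radial glia were mostly not called. Of 15 such genes, all tested, none rose and 2 fell, with a list median log2 fold change of -0.16 and summed levels of 563.1 to 628.8 CPM in CT-26 mice, against 645.1 to 679.5 CPM in control mice. Nes, the intermediate filament gene nestin of neural stem cells and tanycytes, fell to 10.1 CPM on average in CT-26 mice, against 15.8 CPM in controls (log2 -0.64, adjusted p = 0.0028). The tetraspanin gene Cd9 also fell (log2 -0.53). Sox2 and Notch1, which keep progenitors undifferentiated, were at log2 -0.13 and -0.09 and did not pass. Of 12 genes of fatty acid binding and activation and of folate metabolism, Acsl6, a long-chain acyl-CoA synthetase, was the only one called (log2 -0.25, lower).

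**Figure D1:**
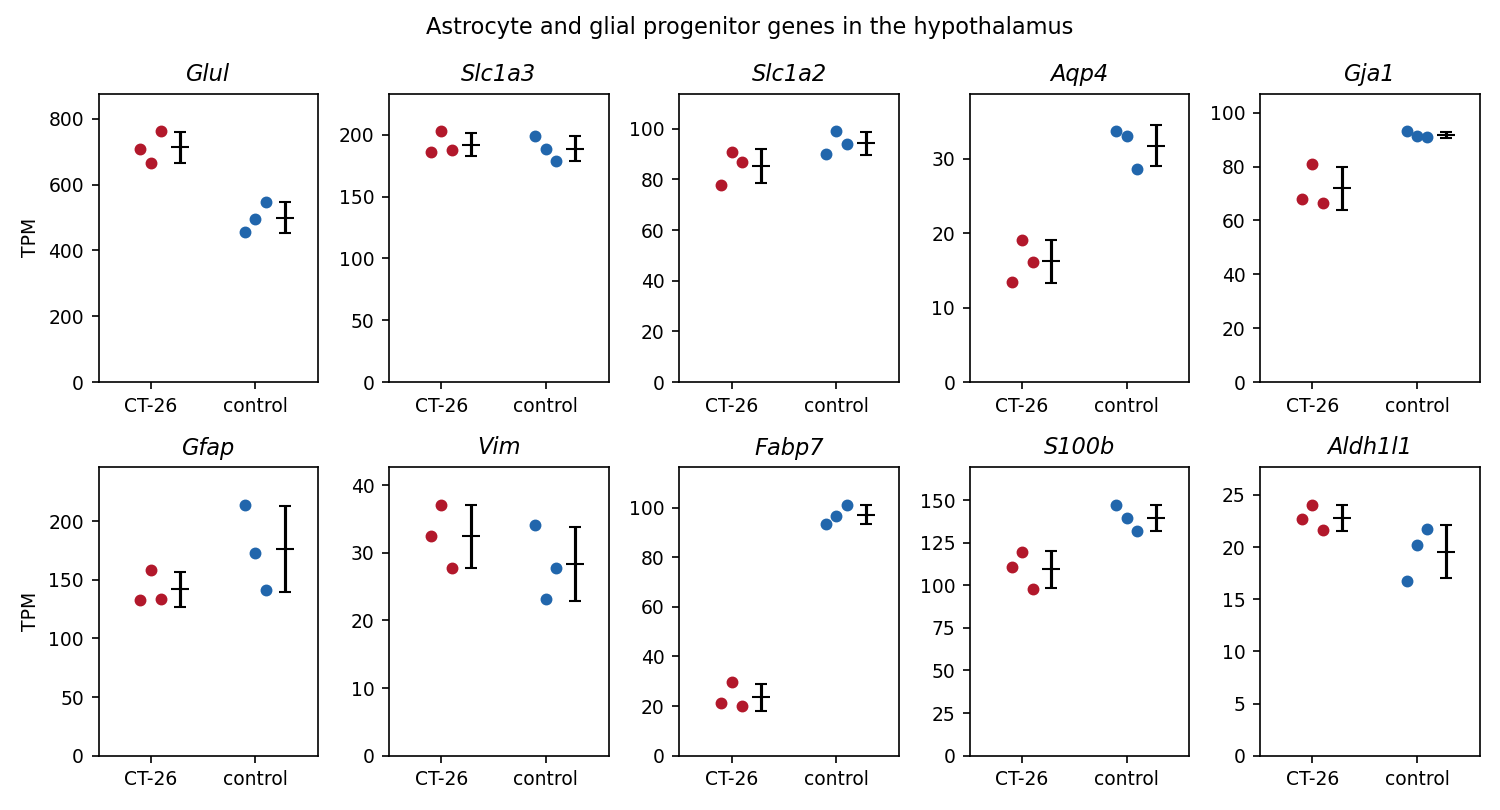
Level of the 10 genes in TPM (vertical axes, each starting at 0) in 3 CT-26 and 3 control hypothalami. Points are mice and black bars are mean ± SD; Fabp7 and Aqp4 in CT-26 mice sit well below all controls and Glul above all controls, while the groups overlap in TPM for Slc1a3, Gfap, Vim, Slc1a2 and Aldh1l1.

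Aqp4 encodes aquaporin 4, the water channel of astrocyte end-feet, and is also expressed in muscle. The gene lies on chromosome 18 at 15389496 to 15410982 (GRCm38, minus strand). In the hypothalamus it stood at 58.7, 80.6 and 73.5 CPM in CT-26 mice, against 144.6, 142.5 and 122.7 CPM in control mice. All 3 CT-26 mice were below all 3 controls. The log2 fold change was -0.95 ± 0.10 (SE, adjusted p = 0.00069). In TPM these were 16.2 ± 2.84 in CT-26 mice, against 31.8 ± 2.77 in control mice (SD, n = 3 each). An antisense gene over part of Aqp4 had a mean of 11.5 counts.

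Other proteins hold or accompany aquaporin 4 in the end-foot. Of 14 listed genes, 3 fell and none rose. Kcnj10, the inward rectifier potassium channel Kir4.1 of astrocytes, fell to 365.4 CPM in CT-26 mice, against 526.6 CPM in controls (log2 -0.53 ± 0.09 SE, adjusted p = 0.0080). Mlc1, an astrocyte junction protein, was at log2 -0.32 and dystroglycan (Dag1) at -0.22, both called lower. Dmd, the dystrophin gene, did not pass (log2 -0.12).

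Gja1 encodes connexin 43, the main gap junction protein between astrocytes, and lies at chr10:56377330-56402513. It was at 182.0, 209.0 and 184.6 CPM in CT-26 mice, against 245.7, 242.2 and 238.4 CPM in controls. The groups did not overlap, and the log2 fold change was -0.34 ± 0.06 (SE, adjusted p = 0.0074). The other astrocyte connexin of the list, Gjb6 (connexin 30), had a log2 fold change of 0.28 and did not pass. Of 10 listed connexin and junction genes, 2 were called, both lower, among them Gjc3, a connexin of oligodendrocytes (log2 -0.45).

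S100b encodes a calcium-binding protein of astrocytes that part of the oligodendrocyte lineage also makes, and lies at chr10:76253853-76261159. CT-26 hypothalami held 129.6, 135.0 and 119.8 CPM, against 173.4, 162.8 and 152.0 CPM in control hypothalami, without overlap. The log2 fold change was -0.35 ± 0.06 (SE, adjusted p = 0.0087). Beside this fall, markers of oligodendrocytes were lower: 9 of 12 were called lower and none higher, with summed levels of 3281 to 3549 CPM in CT-26 and 4813 to 5362 CPM in control mice, and their part in the S100b result was not tested. The myelin genes Mag, Mbp and Ugt8a were at log2 -0.79, -0.63 and -1.29. The last part of S100b, at chr10:76259429-76261159, overlaps Dip2a on the opposite strand, a gene with a mean of 2518 counts in the hypothalamus that was itself called lower (log2 -0.18, adjusted p = 0.043). The strand setting of the counting is not given in the sources used here, so reads there cannot be assigned to 1 of these genes with certainty.

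Glul encodes glutamine synthetase, which converts the glutamate that astrocytes take up into glutamine. It was the most abundant of the 10 genes, at 712.8 ± 47.8 TPM in the CT-26 and 499.6 ± 47.1 TPM in the control hypothalamus (SD, n = 3 each). The test was made on 1700, 1542 and 1895 CPM in CT-26 mice, against 1076, 1175 and 1289 CPM in controls. Every CT-26 mouse was above every control, with a log2 fold change of 0.54 ± 0.08 (SE, adjusted p = 0.0045). Glul lies at chr1:153899944-153909723 on the plus strand.

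The transporters that deliver glutamate to this enzyme did not pass the test. Slc1a3 (GLAST) was at 664.1, 707.4 and 685.2 CPM in CT-26 mice and 701.0, 663.2 and 625.5 CPM in controls, with a log2 fold change of 0.05 whose 95% interval from its SE ran from -0.06 to 0.16. Slc1a2 (GLT-1) was at 830.7, 936.8 and 955.5 CPM in CT-26 mice and 921.3, 1047 and 981.3 CPM in controls. Its log2 fold change was -0.12, with an interval of the same kind from -0.25 to 0.02. With 3 mice per group, 95% intervals from the test would be wider than these. The groups overlapped for both genes, which lie at chr15:8634124-8710764 (Slc1a3) and chr2:102658659-102790784 (Slc1a2). Of 20 other genes of the glutamate and glutamine cycle, 2 rose and 1 fell. The glutamine transporter gene Slc38a5 averaged 4.53 CPM in CT-26 mice, against 2.22 CPM in control mice (log2 1.01, higher), and the alanine transaminase gene Gpt2 was at log2 0.41, also higher. Slc38a3, the astrocyte glutamine transporter SNAT3, was called lower at log2 -0.34.

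Gfap and Vim encode the intermediate filaments glial fibrillary acidic protein and vimentin, and both are known to rise in reactive astrocytes. They lie at chr11:102887336-102900912 and chr2:13573927-13582826. Gfap was at 301.3, 347.4 and 314.8 CPM in CT-26 mice, against 480.7, 387.7 and 313.9 CPM in controls. The controls were widely spread and overlapped the CT-26 mice, and the gene was not called (log2 -0.30 ± 0.12 SE, adjusted p = 0.16). Without control mouse 3, whose value was the lowest control, Gfap was called lower (log2 -0.44, adjusted p = 0.032). Without control mouse 1, the highest control, Gfap was at log2 -0.13 and was not called (adjusted p = 0.41). Vim was at 56.3, 64.0 and 51.3 CPM in CT-26 mice, against 55.3, 40.9 and 46.3 CPM in controls (log2 0.27 ± 0.11 SE, adjusted p = 0.15). Without control mouse 1, the highest control, Vim was called higher (log2 0.39, adjusted p = 0.035). Without control mouse 2, the lowest control, Vim was at log2 0.18 and was not called (adjusted p = 0.38). Of 9 further cytoskeletal and matrix genes of glia, 2 rose and 2 fell, among them the secreted matrix protein gene Sparc (log2 0.51, higher) and the tubulin gene Tuba1a (log2 -0.38, lower).

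Aldh1l1, a folate enzyme used as a broad astrocyte marker and lying at chr6:90486427-90600203, was at 55.9, 58.1 and 56.9 CPM in CT-26 mice, against 42.5, 50.4 and 54.0 CPM in controls. The CT-26 mice lay above the controls without overlap. In TPM they overlapped, and the gene was not called (log2 0.22 ± 0.08 SE, adjusted p = 0.11). Counting Aldh1l1 and Glul above and Fabp7, Aqp4, Gja1 and S100b below, the CPM of the groups did not overlap for 6 of the 10 genes, against 14.7% of all tested genes above and 15.6% below.

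Ratios between members within a library do not depend on how libraries were scaled. The TPM ratio of Fabp7 to Slc1a3 was 0.114, 0.147 and 0.106 in CT-26 mice, against 0.471, 0.513 and 0.566 in controls. The ratio of Aqp4 to Slc1a3 was 0.0724, 0.0942 and 0.0858 in CT-26 mice, against 0.170, 0.175 and 0.160 in controls. The ratio of Glul to Slc1a3 was 3.82, 3.29 and 4.06 in CT-26 mice, against 2.29, 2.63 and 3.07 in controls. In each ratio the groups stood apart, so the 4 genes of a library did not change by an equal factor. Fabp7, Aqp4 and Glul were already apart in CPM, so the ratios restate that result and are no further test. With Aldh1l1 in place of Slc1a3 the groups also stood apart. For Glul that gap was narrow, with a lowest CT-26 ratio of 27.7 and a highest control ratio of 27.1.

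By TPM, the order of the 10 genes in the CT-26 hypothalamus was Glul, Slc1a3, Gfap, S100b, Slc1a2, Gja1, Vim, Fabp7, Aldh1l1 and Aqp4. Neighbours overlapped between mice for Slc1a2 and Gja1, for Vim and Fabp7, and for Fabp7 and Aldh1l1. The control hypothalamus had Glul, Slc1a3, Gfap, S100b, Fabp7, Slc1a2, Gja1, Aqp4, Vim and Aldh1l1 in that order, with overlap between Slc1a3 and Gfap, Gfap and S100b, Fabp7 and Slc1a2, Slc1a2 and Gja1, and Aqp4 and Vim. Fabp7 thus stood beside Aldh1l1, at 22.8 TPM, in CT-26 mice and beside Slc1a2, at 94.3 TPM, in controls. The deposited mean transcript length of a gene, weighted by its isoforms, was compared for 9 of the genes in the hypothalamus, all but S100b, whose length was constant, and for Aqp4 in the gastrocnemius. In the hypothalamus the CT-26 minus control difference was 14.9 bases for Aqp4 (exact permutation test, two-sided, p = 0.5), 72.8 for Vim (exact p = 0.2), 51.1 for Slc1a2 (exact p = 0.9) and -39.1 for Aldh1l1 (exact p = 0.3). Across the 10 such tests made, the lowest p was 0.1, for Glul with a difference of 3.59 bases, which is also the smallest that 3 against 3 mice allow (adjusted p = 1.0).

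**Figure D2:**
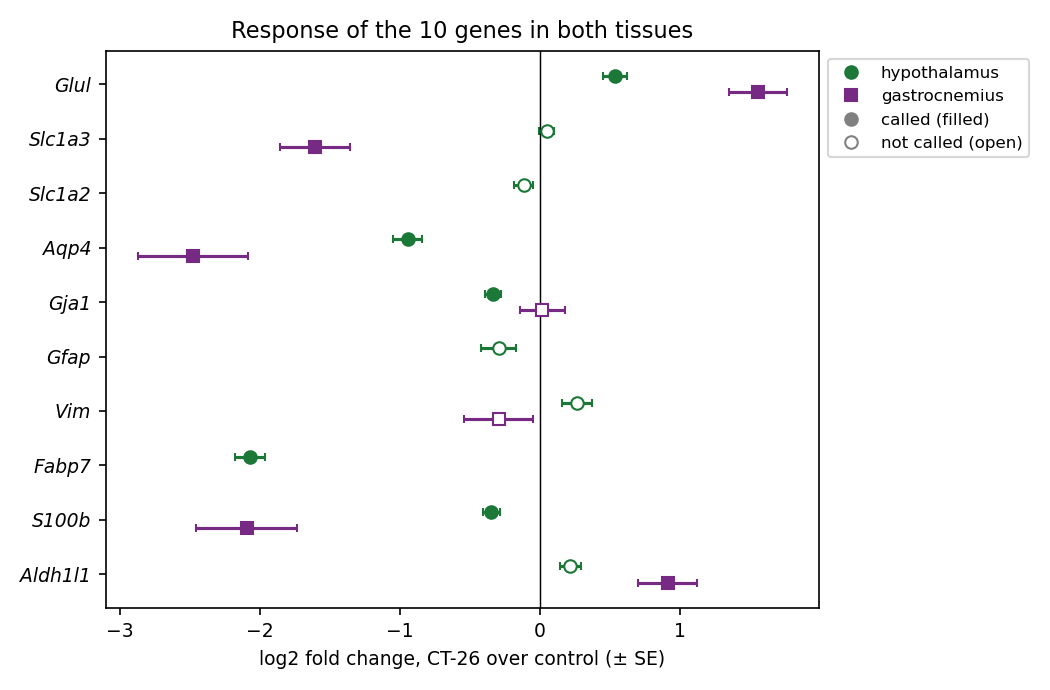
Log2 fold change of CT-26 over control (horizontal axis, bars are SE) for the 10 genes in the hypothalamus (circles) and the gastrocnemius (squares), n = 3 mice per group. Filled symbols passed an adjusted p of 0.05; Fabp7 at -2.07 is the lowest value in the hypothalamus and Aqp4 at -2.48 the lowest in the gastrocnemius, where Fabp7, Gfap and Slc1a2 were not tested.

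A wider list of 40 other astrocyte genes moved in both directions. All 40 were tested, 6 rose and 9 fell, and the summed level was 12860 to 13250 CPM in CT-26 and 12780 to 13600 CPM in control mice. The list median log2 fold change was -0.12. Agt, the angiotensinogen gene, averaged 427.5 CPM in CT-26 mice, against 242.7 CPM in control mice (log2 0.82, adjusted p = 0.00098). Itih3, a hyaluronan-binding matrix protein gene, and Aldoc, the brain aldolase gene, were also called higher (log2 0.41 and 0.29). Slc7a10, a transporter of serine and glycine, averaged 29.9 CPM in CT-26 mice, against 48.3 CPM in control mice (log2 -0.69, adjusted p = 0.00077), and the sodium pump subunit gene Atp1b2 was called lower at log2 -0.35. Sox9, a transcription factor of astrocytes, did not pass (log2 -0.26).

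Genes listed for reactive astrocytes were higher in part, although Gfap and Vim did not pass. Of 11 general reactive genes 10 were tested, 5 rose and none fell, with a list median of 0.30. Of 12 inflammatory reactive genes 7 rose and none fell, with a median of 0.51, and of 12 injury-type genes 9 were tested and none was called by edgeR, with 3 higher and 0 lower at an unadjusted p below 0.05. Lcn2, the iron-siderophore-binding protein lipocalin 2, had 1047, 420 and 1426 counts in the CT-26 libraries, against 2, 2 and 3 counts in the control libraries (adjusted p = 1.8e-05). Such low control counts make the size of its fold change uncertain. Steap4, a metalloreductase, was at 3.58, 2.92 and 2.92 CPM in CT-26 mice, against 0.407, 0.236 and 0.254 CPM in controls.

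The copper-carrying ferroxidase ceruloplasmin (Cp) and the oncostatin M receptor (Osmr) were called higher at log2 1.10 and 1.07, and the protease inhibitor gene Serpina3n at 0.35. Fbln5, an elastic fibre protein, averaged 30.1 CPM in CT-26 mice, against 6.74 CPM in control mice (log2 2.16). Complement C3 averaged 14.4 CPM in CT-26 mice, against 4.04 CPM in control mice (log2 1.84). Fkbp5, also called higher in the inflammatory list, is counted again below among glucocorticoid-responsive genes. Blood cells and endothelial cells also use several of the reactive genes. Of 11 neutrophil and red cell markers 10 were called higher, with summed levels of 573.2 to 733.8 CPM in CT-26 and 248.0 to 389.0 CPM in control mice, and their part in the reactive gene counts was not tested.

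Other cell types of the tissue gave these values. Of 12 neuron markers 1 was lower, Tubb3 (log2 -0.28), with sums of 5769 to 5996 CPM in CT-26 and 5937 to 6207 CPM in control mice. Of 12 microglia markers 3 rose, the complement genes C1qc, C1qa and C1qb (log2 0.66, 0.54 and 0.31), and none was called lower. At an unadjusted p below 0.05 in edgeR, 3 were higher and 3 lower, and the list median log2 fold change was -0.08. Sums were 232.9 to 286.6 CPM in CT-26 and 247.1 to 257.5 CPM in control mice. Of 13 tanycyte and ependymal markers, the deiodinase gene Dio2 rose (log2 0.57) and the tanycyte receptor gene Gpr50 (log2 -0.55) and the ciliary factor gene Foxj1 (log2 -0.54) fell. Sums of this list overlapped, at 137.9 to 165.7 CPM in CT-26 and 148.5 to 187.3 CPM in control mice. Of 10 oligodendrocyte progenitor markers 3 fell, Gpr17, C1ql1 and Sox10 (log2 -0.86, -0.70 and -0.67), and none was called higher. Sums of that list did not overlap, at 352.8 to 389.2 CPM in CT-26 and 420.8 to 437.8 CPM in control mice. Pdgfra, another marker of the list that is also listed for muscle fibroblasts, was at log2 0.01. Of 11 endothelial and mural markers, Slco1a4 and Pecam1 rose and Kdr and Rgs5 fell. Of 5 pituitary markers 2 were tested and Cga, the glycoprotein hormone subunit gene, rose, with sums of 8.87 to 11.2 CPM in CT-26 mice, against 4.82 to 7.12 CPM in control mice. The part of any of these cells in the results for the 10 genes was not tested.

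**Figure D3:**
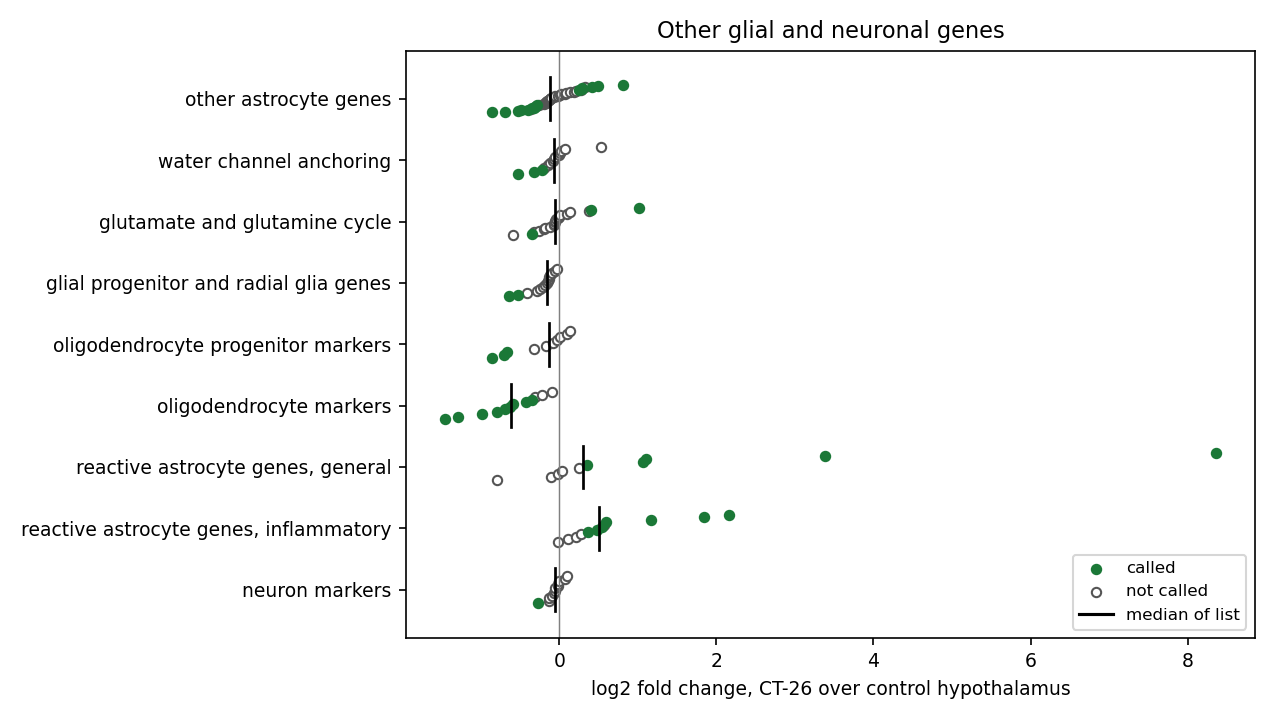
Log2 fold change of CT-26 over control hypothalamus (horizontal axis) for genes of 9 lists (rows), 1 point per tested gene, with filled points for an adjusted p below 0.05 and a bar at the list median. Oligodendrocyte markers lie to the left with a median of -0.61, inflammatory reactive genes to the right with a median of 0.51, and neuron markers near 0.

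Some hypothalamic calls differed between the alternatives tried. Fabp7 remained called in each alternative tried (highest adjusted p = 0.030). With log2(TPM + 0.5) and limma, Aqp4, Gja1, S100b and Glul missed the threshold (adjusted p = 0.068, 0.14, 0.16 and 0.10), as they did in 1 fit of all 12 libraries (adjusted p = 0.18, 0.22, 0.44 and 0.20), while their log2 fold changes stayed at -0.96, -0.36, -0.35 and 0.51 with TPM. Without a filter on low counts, edgeR also called Gfap lower (adjusted p = 0.00041) and Vim and Aldh1l1 higher (0.0039 and 0.020). DESeq2 and scaling by library totals gave the same counts, 1 higher and 4 lower.

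In the gastrocnemius 7 of the 10 genes passed the filter on low counts. Of these 5 were called, against 38.0% of all tested genes, and 2 rose and 3 fell. Aqp4 fell 5.58-fold and Glul rose 2.95-fold, the same directions as in the hypothalamus. Among all 14265 genes tested in that muscle, 19.6% were called higher and 18.3% lower, so a call is common there. Fabp7, with 0 to 1 counts per CT-26 library and 1 to 7 per control library, and Gfap and Slc1a2 were too low to test. For Glul and Aldh1l1 the CT-26 mice lay above all controls, as for 26.3% of all tested genes, and for Aqp4, S100b and Slc1a3 below them, as for 25.3%.

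In muscle aquaporin 4 lies in the membrane of fast fibres, held by the dystrophin complex. Its transcript was at 2.54, 9.53 and 5.68 CPM in CT-26 mice, against 34.0, 28.9 and 34.3 CPM in control mice. The groups did not overlap, with the highest CT-26 value in mouse 2. The log2 fold change was -2.48 ± 0.39 (SE, adjusted p = 0.0022), or -3.01 without CT-26 mouse 2. In the same libraries the summed fast fibre genes were at 81720, 144800 and 68410 CPM in CT-26 mice, against 131500, 164700 and 122600 CPM in controls. The summed slow and oxidative fibre genes were at 9576, 2024 and 6389 CPM in CT-26 mice, against 2532, 1919 and 4871 CPM in controls. Of these 9 genes 1 was called higher and 0 lower. Of the 10 fast fibre genes 4 were called lower, Casq1, Myl1, Pvalb and Mylpf (log2 -2.50, -2.64, -2.78 and -1.13). The part of fibre type in the Aqp4 result was not tested. Of 11 tested anchoring genes 2 were called higher, among them Dmd (log2 0.54), and 1 lower, the laminin gene Lama2 (log2 -0.43).

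Glul in muscle serves the release of glutamine to other organs. It was at 722.0, 568.0 and 799.0 CPM in CT-26 gastrocnemius, against 202.2, 210.2 and 296.1 CPM in control gastrocnemius. All CT-26 mice were above all controls (log2 1.56 ± 0.21 SE, adjusted p = 0.0011). Aldh1l1 was also called higher, at 5.95, 5.85 and 3.83 CPM in CT-26 mice, against 2.78, 2.57 and 2.95 CPM in controls (log2 0.91, adjusted p = 0.011).

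S100b and Slc1a3 were low in muscle and fell. S100b was at 0.445, 0.465 and 0.658 CPM in CT-26 mice, against 1.79, 1.61 and 3.31 CPM in controls (log2 -2.10 ± 0.36 SE, adjusted p = 0.0031), resting on 12 to 22 counts per CT-26 library and 44 to 93 per control library. Schwann cells of nerves, which express S100b, were represented by 10 markers, of which 6 fell and none rose, with sums of 41.5 to 55.0 CPM in CT-26 and 94.5 to 128.1 CPM in control mice; their part in the S100b result was not tested. Slc1a3 was at 1.10, 1.24 and 0.717 CPM in CT-26 mice, against 2.74, 3.15 and 3.41 CPM in controls (log2 -1.61, adjusted p = 0.0021). Vim (log2 -0.30) and Gja1 (log2 0.02) did not pass. Vim had the opposite sign with TPM (log2 0.04). The 5 calls kept their direction with library totals and with TPM.

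The difference between the effects in the hypothalamus and the gastrocnemius was tested for the 7 genes tested in both, by the interaction of condition and tissue over all 12 libraries. It passed for 5 of 7, against 33.2% of the 13572 genes tested in both tissues. Slc1a2 was below 0.05 in the same fit (difference 2.17, adjusted p = 0.012) but is not counted, since its muscle value rests on 2 to 6 counts per CT-26 library and 4 to 20 per control library. The fall of Aqp4 was smaller in the hypothalamus (log2 -0.95) than in the gastrocnemius (log2 -2.48), with a difference of 1.57 ± 0.42 (SE, adjusted p = 0.015). The rise of Glul was likewise smaller in the hypothalamus (log2 0.54 against 1.56, difference -1.01 ± 0.24 SE, adjusted p = 0.0077). S100b and Slc1a3 differed by 1.78 and 1.67 and Aldh1l1 by -0.68 (adjusted p = 0.032). Both tissues came from the same numbered mice, and with the mouse as block the Aldh1l1 difference missed the threshold (adjusted p = 0.055), as it did without CT-26 mouse 1 (0.14), CT-26 mouse 2 (0.092), control mouse 2 (0.14) or control mouse 3 (0.091). For Vim and Gja1 the difference did not pass (adjusted p = 0.17 and 0.14). The Aqp4 difference missed the threshold without CT-26 mouse 3 (adjusted p = 0.059), control mouse 1 (0.062) or control mouse 3 (0.067).

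**Figure D4:**
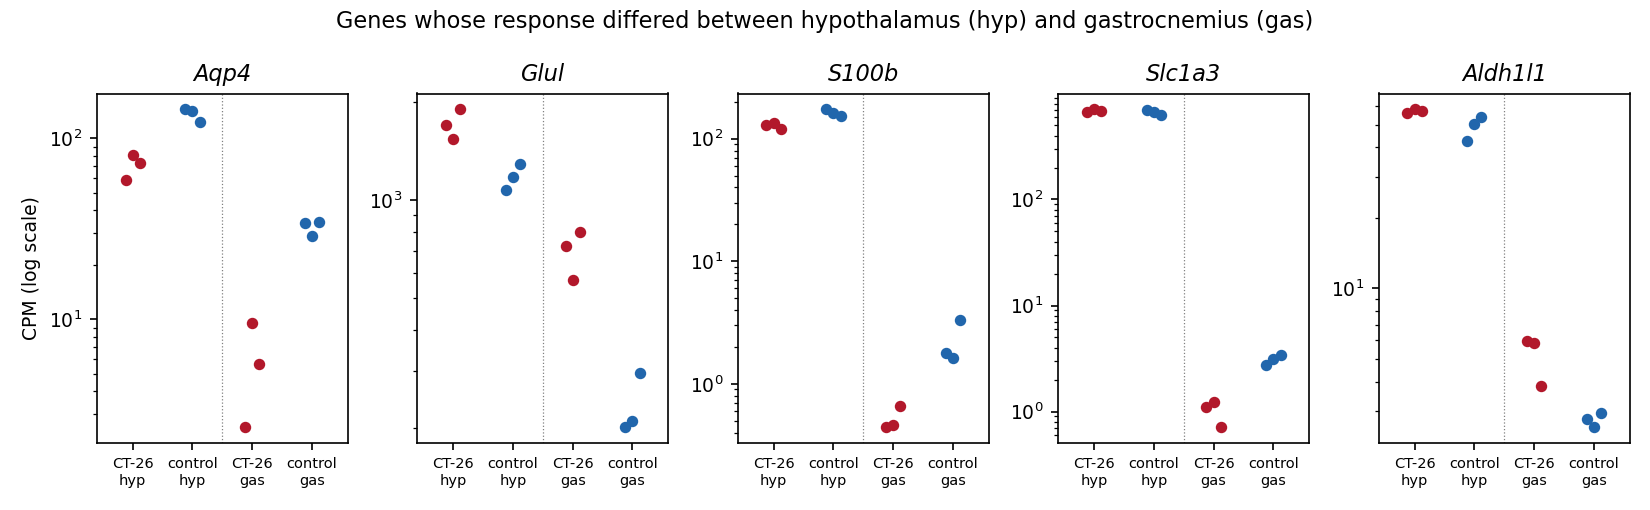
CPM (log scale) of the 5 genes whose CT-26 effect differed between tissues, in CT-26 and control hypothalamus (hyp) and gastrocnemius (gas), 1 point per mouse. Aqp4 is lower and Glul higher in CT-26 mice in both tissues; S100b and Slc1a3 in muscle lie at or below 3.41 CPM. The tissues were normalised separately, so levels across the dotted line are not a test.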

How the data were processed

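Reads were trimmed by the authors (Trim Galore 0.6.6), with STAR 2.7.9a, RSEM 1.3.3 and the GRCm38 build also listed, per the submitters' processing notes; the annotation release and strand setting are not given in the sources used here. Libraries came from a directional kit, per the labels' protocols. The deposited tables hold expected counts, which are estimated and need not be whole, TPM scaled per length and library, and isoform-weighted lengths. Of 55416 identifiers, 52135 were named from GENCODE M21.

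Expected counts were rounded and tested per tissue with edgeR 4.0.16 in R 4.3.3 (filterByExpr, TMM, quasi-likelihood test). SEs come from the test statistic. DESeq2 1.42.0 and limma 3.58.1 served alternatives. The fits were tested on simulated data. Libraries of a group differed by more than sampling noise (chi-square per gene 5.86 to 160).

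The members and lists were chosen with earlier results of these data known. Named genes are all members, up to 4 called genes with the smallest p per list (the 2 most abundant where none was called) and 8 fixed genes, among them Dmd, Kcnj10, Sox9, Aldoc, Nes, Lcn2 and Serpina3n. Some genes that the rule took are left out here. Gjb6, Sox2, Notch1, Pdgfra, Dip2a and the lists of hypothalamic neuron, clock and glucocorticoid-responsive genes were chosen after their values were seen. Mice of a group were separate numbered animals.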

Additional observations from a re-analysis of the deposited data

Results flagged for a closer look

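Among the 7 genes tested in both tissues, 5 were called for a difference: the effect of CT-26 differed between the hypothalamus and the gastrocnemius by the interaction test in edgeR. As log2 differences, hypothalamus minus gastrocnemius, these were 1.57 for Aqp4, 1.67 for Slc1a3, -0.68 for Aldh1l1, 1.78 for S100b and -1.01 for Glul. Aqp4, Glul and S100b moved the same way in both tissues. Slc1a3 was at log2 0.05 in the hypothalamus and -1.61 in the gastrocnemius, and Aldh1l1 at 0.22 and 0.91. The Aldh1l1 difference missed the threshold with the mouse as block (adjusted p = 0.055) and in 4 of the 6 fits that left out 1 mouse, and the Aqp4 difference did so in 3 of those 6 fits (adjusted p = 0.059, 0.062 and 0.067).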

How the results depend on the processing

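In the hypothalamus, where 1 member was called higher and 4 lower among 1575 called genes, no filter gave 3 higher among 2598 called genes. With TPM and a pseudocount of 0.5, 0 were higher and 1 lower among 59 called genes. A pseudocount of 0.1 gave 0 and 1 among 92, and 1 fit of all 12 libraries 0 and 1 among 162. The cause of these changes was not tested. Leaving out 1 mouse gave 1 to 2 members higher, 4 to 5 lower and 576 to 1266 genes called (lowest without control mouse 2; 711, 1041 and 801 without CT-26 mouse 1, 2 and 3). In the gastrocnemius, leaving out 1 mouse gave 3547 (without control mouse 1) to 5450 genes called against 5417, with 2 members higher and 3 lower each time. For the difference between tissues it gave 3 (without control mouse 3) to 4 members against 5, and 3204 to 4604 genes against 4952 (3223 and 3204 without control mouse 1 and 2). Aldh1l1 missed the threshold there in 4 of these 6 fits. Vim in the gastrocnemius turned to 0.04 with TPM at either pseudocount (0.03676 and 0.03597), and Gja1 ranged from -0.12 to 0.13 when 1 mouse was left out. With library totals the median of all genes moved to 0.20 in the gastrocnemius and to -0.11 for the difference between tissues. It was 0.16 in the gastrocnemius with a pseudocount of 0.1 and 0.11 for the difference with DESeq2.

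With the replicate block, the hypothalamic log2 fold changes of Fabp7 and Aqp4 were -2.08 and -0.95. Within a tissue it changed the call of no member, with 1111 genes called in the hypothalamus and 5721 in the gastrocnemius. The paired fit with the mouse as block left Aldh1l1 uncalled for the difference between tissues (-0.66, adjusted p = 0.055). Deviations of same-numbered CT-26 and control mice correlated at -0.12 to -0.015 in the hypothalamus and -0.071 to 0.32 in the gastrocnemius, and not every pair exceeded 0.1, so the numbers were not used to pair CT-26 with control mice. Fabp7, Gfap and Slc1a2 had too few counts in muscle to be tested at these depths.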

Other observations

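Genes that respond to glucocorticoids, a list chosen after its values were seen, were higher in part in the CT-26 hypothalamus. Of 14, 8 were called higher and none lower, with summed levels of 1065 to 1434 CPM in CT-26 and 729.5 to 923.9 CPM in control mice. The sulfotransferase gene Sult1a1 was at log2 2.44, the transcription factor gene Zbtb16 at 1.22, the co-chaperone gene Fkbp5 at 1.16 and the kinase gene Sgk1 at 1.05. Fkbp5 also belongs to the inflammatory reactive list above, so the lists are not fully separate. In the gastrocnemius 10 of 14 were called higher and none lower.

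Fabp7 is known to follow the daily clock in mouse brain, and the labels give no hour of collection. Of 16 core clock genes, also chosen after their values were seen, Tef, Per3 and Cry2 were called higher (log2 0.31, 0.31 and 0.24) and Nr1d1, which encodes REV-ERB alpha, lower (log2 -0.44). Over all tested genes 3.94% were called higher and 4.83% lower. At an unadjusted p below 0.05 in edgeR, 5 of the 16 clock genes were higher and 3 lower. Among those not called, Dbp, Per1 and Per2 were at log2 -0.06, 0.05 and 0.04. The part of time of day in the Fabp7 result was not tested.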
